A study of Homo sapiens with 4 samples.

Results

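The genes described here are 40 genes of glucose breakdown and of the cellular response to low oxygen: the enzymes of glycolysis, the enzymes and carriers of lactate, the pyruvate dehydrogenase complex and its kinases, hypoxia-inducible factor 1 alpha (HIF1A), the enzymes that mark it for destruction, and its well-known target genes. They were chosen by gene symbol from the 18134 genes of the deposited expression table, with the glucose carriers of the SLC2A family left out, and all 40 were found and had enough counts to be tested. RNA was sequenced from PC9, an established human lung adenocarcinoma cell line, after lentiviral delivery of a pLKO.1 short hairpin against the mitotic spindle factor TPX2 (shTPX2) or of a control hairpin (shNC), each followed by puromycin selection into a stable line. Each group has 2 libraries, numbered 1 and 2, from a single labelled batch, and the cells were grown in DMEM with serum. A single hairpin was used per group, the knockdown is partial by design, and nothing says that the libraries of a group came from separate cultures, so p-values measure only the spread between these libraries, which may be technical. The comparison asks which transcripts differ between PC9 cells with and without TPX2 depletion.

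Glycolysis turns glucose into pyruvate in the cytosol. Pyruvate is then either reduced to lactate by lactate dehydrogenase and exported by monocarboxylate carriers, or moved into the mitochondrion and oxidised by pyruvate dehydrogenase, which the pyruvate dehydrogenase kinases (PDKs) switch off. HIF1A is a transcription factor whose protein is made all the time and destroyed when oxygen is present, after prolyl hydroxylases of the EGLN family have marked it. When oxygen falls the protein persists, binds DNA at a short motif with the core ACGTG or GCGTG, and raises the transcription of most glycolytic enzymes, of lactate export, of PDK1 and of genes such as CA9 and VEGFA. Lung adenocarcinoma cells, like many tumour cells, run glycolysis at a high rate even with oxygen present.

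Levels are given as TPM, a deposited measure of a gene's share of the transcripts in a library, which is corrected for transcript length and sums to the same figure for each library. Differences are given as the log2 fold change of shTPX2 against shNC, with its standard error (SE), from the quasi-likelihood test of edgeR on the deposited expected counts of 20906441 to 21972583 reads per library. The 2 scales are not the same: the median gene had a log2 ratio of mean TPM of -0.12 but a fitted log2 fold change of -0.01, so equal TPM in both groups corresponds to a fitted value a little above 0. TPX2 itself stood at 55.0 and 111.85 TPM with shNC and at 43.35 and 43.8 TPM with shTPX2, with a log2 fold change of -0.81 (SE 0.32, edgeR adjusted p = 0.618). Its 2 shNC libraries differed more from each other than shNC 1 did from shTPX2, and without shNC 2 the log2 fold change of TPX2 was -0.24. Of 9 lung epithelial markers, 6 (EPCAM, CDH1 and 4 keratins) exceeded 10 TPM in every library, while the lung lineage markers NKX2-1, NAPSA and SFTPB stayed under 2 TPM in every library. Their sum was 20016 to 27564 TPM with shNC and 23988 to 25785 TPM with shTPX2. Markers of fibroblasts summed to 9.19 to 12.4 TPM with shNC and 5.9 to 8.29 TPM with shTPX2, with 4 of 5 under 2 TPM in every library. Endothelial markers summed to 19.9 to 32.6 TPM with shNC and 31.1 to 36.5 TPM with shTPX2, where CDH5 stood at 14.4 and 18.1 TPM with shNC against 26.7 and 30.5 TPM with shTPX2 while PECAM1 stood at 5.38 and 14.4 TPM with shNC against 4.2 and 5.92 TPM with shTPX2 and VWF and KDR stayed under 2 TPM. Of 5 leukocyte markers, 3 stayed under 2 TPM in every library, PTPRC and CD3E among them. CD68, a lysosomal protein, stood at 126 and 220 TPM with shNC and at 191 and 168 TPM with shTPX2. Another leukocyte marker was neither under 2 TPM nor over 10 TPM in every library. The part of these marker levels in the results was not tested.

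No gene of the 40 passed an adjusted p under 0.05 in edgeR, and none of the 14048 tested genes did (0% higher and 0% lower). Without adjustment, 3 of the 40 had an edgeR p under 0.05 and were higher in shTPX2, against 3.13% of all tested genes, and 2 were lower, against 4.9%. DESeq2 called 1 of the 40 genes, the aldolase ALDOC, at an adjusted p of 0.0215, against 0.79% of all tested genes. The study's own criteria are looser, a p of at most 0.1 in limma with a log fold change of 0.3 or more, and were read here as an unadjusted p, log2 and either direction, which the study does not spell out. At these criteria 10 of the 40 genes (25%) were called, against 14.2% of all tested genes. Of these, 6 were higher, against 6.24% of all genes, and 4 were lower, against 7.99%. The 40 genes had a smaller median SE in edgeR, 0.21 against 0.24 over all tested genes, so these shares are not fully comparable. With scaling by library size only, the split moved to 4 higher and 5 lower among the 40 genes and to 578 higher and 1445 lower among all genes, from 876 higher and 1122 lower, and quantile normalization also gave 4 higher and 5 lower of the 40. In what follows, "called" refers to the study's criteria.

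In a bulk sample, fewer cells expressing a gene and less RNA per cell cannot be told apart. The called genes included both higher and lower ones. Those called higher were the glycolytic enzymes HK2, TPI1, PGAM1 and ENO1, the lactate carrier SLC16A3 and the glycolytic regulator PFKFB3. Those called lower were ALDOC, the oxygen sensor EGLN1 and the hypoxia targets NDRG1 and KDM3A. Of the 40 genes, 21 had a log2 fold change above 0, against 48.8% of all tested genes, and 19 below 0, against 51.1%, with a median of 0.06. The median was 0.26 over the 15 glycolytic enzymes, of which 13 lay above 0, and -0.29 over the 8 hypoxia targets, of which 6 lay below 0. No test was made of these medians.

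The libraries of the 2 groups can also be set apart by rank. In TPM, both shTPX2 libraries lay above both shNC libraries for 7 of the 40 genes (17.5%), against 10.7% of all tested genes, and below them for 10 (25%), against 30.3%, so that 42.5% of the 40 genes and 41% of all genes did not overlap. On TMM-scaled counts, the scale of the fit, the shTPX2 libraries lay above for 14 genes, against 19.4% of all tested genes, and below for 4, against 20.2%. The 4 genes below were the 4 called lower, and the 6 called higher were among the 14 above. An exact permutation test of 2 libraries against 2 cannot give a two-sided p below 0.333.

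**Figure D1:**
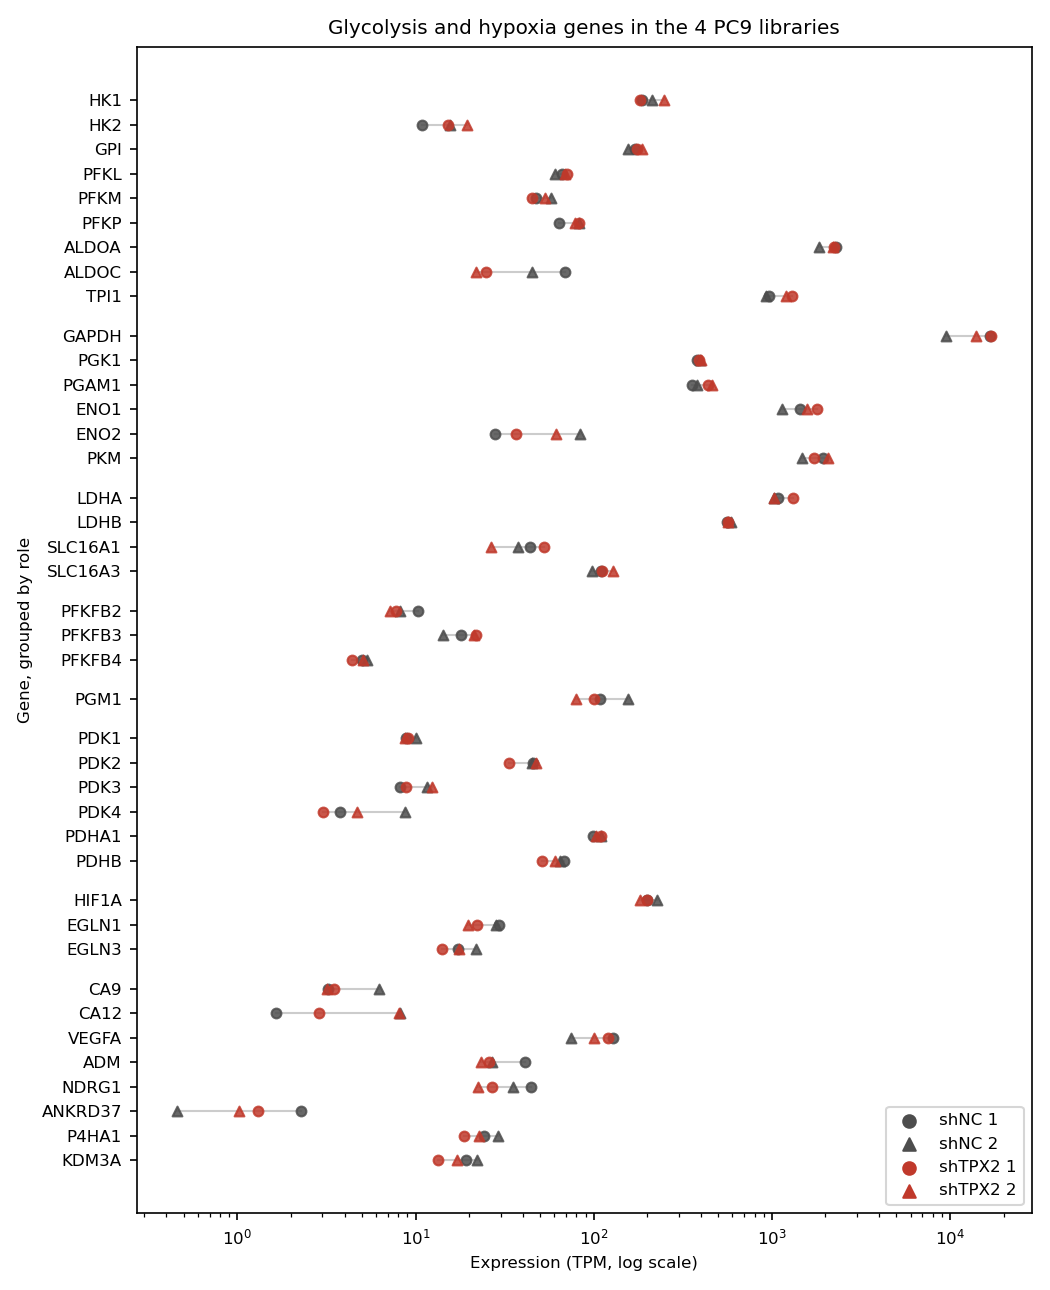
Expression in TPM (log scale, horizontal axis) of the 40 genes, grouped by role, with a grey (shNC) or red (shTPX2) symbol per library, circles for library 1 and triangles for library 2; the line spans the 4 libraries. Levels run from 0.46 TPM for ANKRD37 in shNC 2 to 17045 TPM for GAPDH in shTPX2 1, and for most genes the symbols of the groups are interleaved.

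The upper part of glycolysis, from the trapping of glucose to the triose phosphates, held 9 genes. Of these, 8 had a log2 fold change above 0, against 48.8% of all tested genes. Of the 9, 2 were called higher, against 6.24% of all tested genes, and 1, ALDOC, was called lower, against 7.99%. The median log2 fold change was 0.25. HK2, the inducible hexokinase that phosphorylates glucose as it enters the pathway, stood at 10.9 and 15.6 TPM with shNC and at 15.2 and 19.5 TPM with shTPX2. The TPM ranges overlapped slightly, but on the scale of the fit both shTPX2 libraries lay higher, with a log2 fold change of 0.50 (SE 0.22, edgeR adjusted p = 0.647). HK2 was not called without shNC 1, where its log2 fold change was 0.30, without shTPX2 2, where it was 0.34, or with scaling by library size only. HK1, the housekeeping hexokinase, was far more abundant, at 182 to 248 TPM over the 4 libraries, and its groups overlapped.

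TPI1, triose phosphate isomerase, which interconverts the products of aldolase, had the largest positive log2 fold change of the 40 genes. It stood at 960.1 and 922 TPM with shNC and at 1296 and 1199.95 TPM with shTPX2. The groups did not overlap, and the log2 fold change was 0.53 (SE 0.18, edgeR adjusted p = 0.587). The call was lost without shTPX2 1, where the log2 fold change was 0.46. The other upper enzymes, GPI, PFKL, PFKM, PFKP and ALDOA, had log2 fold changes of 0.04 to 0.27 and none was called. GPI, which isomerises glucose phosphate, and PFKL, the liver form of phosphofructokinase, were higher in both shTPX2 libraries than in both shNC libraries in TPM.

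ALDOC, the brain-type aldolase and a minor form in these cells, had the most negative log2 fold change of the 40 genes. Its level was 68.8 and 45.3 TPM with shNC against 24.7 and 21.9 TPM with shTPX2, so that the lowest shNC library held more than either shTPX2 library. The log2 fold change was -1.17 (SE 0.25, edgeR adjusted p = 0.460). ALDOC was called with any of the 4 libraries left out, with log2 fold changes from -1.46 to -0.80. ALDOA, the main aldolase, stood at 1831 to 2306 TPM, with a log2 fold change of 0.23.

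The promoters of 4 called genes are shown because they hold the ACGTG core, which is shared by the hypoxia response element and, as CACGTG, by the E-box of MYC-type factors. They were chosen after the values were seen, as 2 genes called higher and 2 called lower. Capitals mark ACGTG and its reverse complement CACGT in the 250 bases before the RefSeq start of the transcript on GRCh38.p14, read 5′ to 3′ on the strand of the gene. The window of ALDOC is chr17:28576896-28577145 on the minus strand and that of TPI1 is chr12:6867855-6868104 on the plus strand.
ALDOC promoter: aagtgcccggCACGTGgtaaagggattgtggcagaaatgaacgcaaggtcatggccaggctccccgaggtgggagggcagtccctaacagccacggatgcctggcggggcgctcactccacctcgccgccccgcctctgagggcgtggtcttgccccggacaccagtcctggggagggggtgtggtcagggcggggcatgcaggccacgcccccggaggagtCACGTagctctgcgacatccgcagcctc
TPI1 promoter: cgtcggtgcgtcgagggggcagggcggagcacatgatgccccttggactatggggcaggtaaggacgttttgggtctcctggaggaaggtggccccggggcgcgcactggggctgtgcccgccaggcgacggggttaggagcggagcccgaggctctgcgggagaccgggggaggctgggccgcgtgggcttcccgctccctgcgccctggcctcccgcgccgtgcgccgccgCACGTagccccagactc
In ALDOC the first match is a full CACGTG at position -240 from the start and another CACGT begins at -28, while TPI1 holds CACGT at -17 in the window shown, 1 of its 2 windows and the only one with the core. Over windows of 300 bases, 250 before and 50 after the start, 22 of the 36 genes with a RefSeq window (61.1%) held ACGTG on either strand in at least 1 window, against 24.9% of 27305 genes. Counted by window, since genes with several starts have several, 26 of 68 windows (38.2%) held it, against 21.4% of 35116. GCGTG was in 41.2% of the windows of these genes against 36.5% of all windows, and CACGTG, which contains ACGTG, in 13.2% against 7.26%. By call, ACGTG was in a window of 4 of 6 genes called higher, 2 of 3 called lower and 16 of 27 not called. A match is only a run of letters, and no binding was measured here. NDRG1, PFKFB2, SLC16A1 and VEGFA had no entry in the promoter table.

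**Figure D2:**
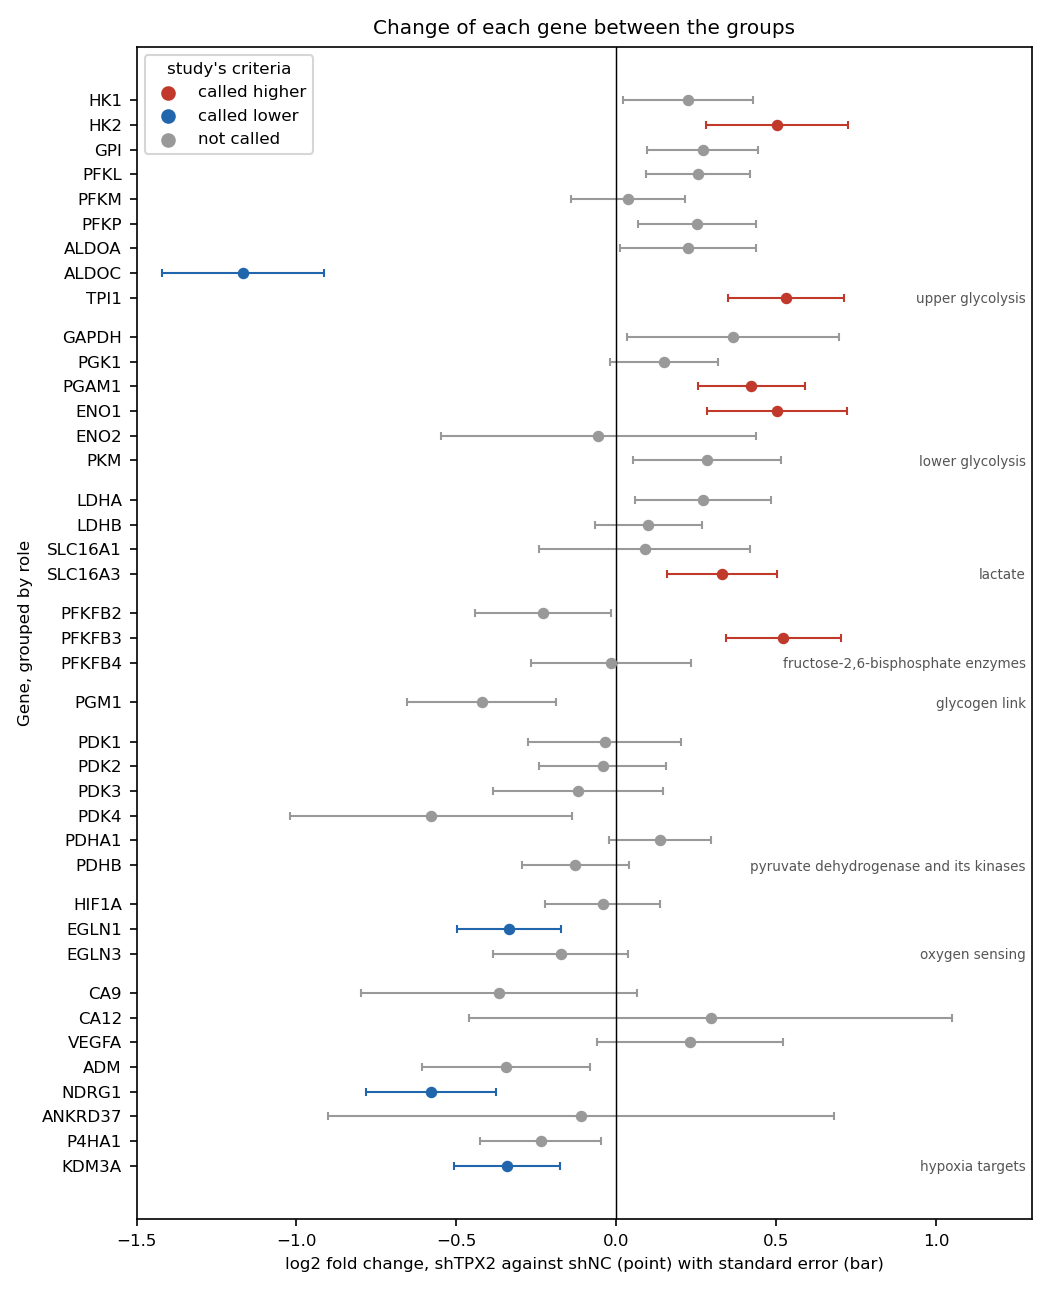
Log2 fold change of shTPX2 against shNC (horizontal axis) for the 40 genes grouped by role, as points with the standard error from edgeR as bars; red marks genes called higher at the study's criteria, blue genes called lower and grey genes not called. Glycolytic enzymes other than ALDOC and ENO2 lie right of 0, most hypoxia targets lie left of it, and the bars of many genes cross 0.

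Of the 6 genes of lower glycolysis, from triose phosphate to pyruvate, 5 had a log2 fold change above 0, against 48.8% of all tested genes. The median was 0.32, and 2 of the 6 were called higher, against 6.24% of all tested genes. PGAM1, phosphoglycerate mutase, stood at 356 and 379 TPM with shNC and at 439.99 and 464 TPM with shTPX2. The groups did not overlap, and the log2 fold change was 0.42 (SE 0.17, edgeR adjusted p = 0.619). It varied little with the library left out, from 0.41 to 0.45, although the call was lost without shTPX2 1 (0.45) or shTPX2 2 (0.41). ENO1, the main enolase, was at 1448 and 1145 TPM with shNC and 1799 and 1574 TPM with shTPX2. Both shTPX2 libraries were higher than both shNC libraries, and the log2 fold change was 0.50 (SE 0.22, edgeR adjusted p = 0.644). ENO1 was not called without shNC 2 (0.32), without shTPX2 1 (0.39) or with quantile normalization.

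GAPDH, the dehydrogenase that is often used as a loading control, was the most abundant of the 40 genes. It stood at 16690.1 and 9508 TPM with shNC and at 17045 and 13984 TPM with shTPX2. The groups overlapped, shNC 2 reaching 0.570 of the level of shNC 1, and the log2 fold change of 0.37 (SE 0.33, edgeR adjusted p = 0.807) became -0.0064 without shNC 2. PKM, the pyruvate kinase that ends glycolysis, was at 1928 and 1471 TPM with shNC and 1734 and 2077 TPM with shTPX2. These groups also overlapped, and the log2 fold change was 0.28 (SE 0.23, edgeR adjusted p = 0.788). PGK1, phosphoglycerate kinase, differed little between libraries, at 381 to 399 TPM. ENO2, the neuronal enolase, ranged from 27.9 to 84.1 TPM within shNC alone, and its log2 fold change of -0.06 went from -0.62 without shNC 1 to 0.91 without shNC 2. Several of these enzymes have processed pseudogenes of near-identical sequence, GAPDH, PGK1, ENO1, PGAM1, TPI1, LDHA and PKM among them, and how the quantification divided the reads that fit both is not known, so their exact levels are uncertain.

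The share of a library's transcripts devoted to glycolysis differed between libraries. The 15 glycolytic enzymes together took 2.47% and 1.64% of the TPM with shNC and 2.56% and 2.27% in shTPX2. GAPDH alone accounted for 1.67% and 0.951% in shNC and 1.71% and 1.4% in shTPX2. With GAPDH the groups overlapped. Without GAPDH, the other 14 enzymes summed to 8022 and 6858 TPM with shNC and to 8519 and 8667 TPM with shTPX2. On this sum the groups did not overlap, at 7439.8 ± 823 TPM with shNC and 8593 ± 105 TPM with shTPX2 (mean ± SD, n = 2 each), and the exact two-sided permutation p was 0.333, the smallest that 2 libraries against 2 can give.

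At the branch to lactate, all 4 genes had a log2 fold change above 0, against 48.8% of all tested genes, with a median of 0.19. Of the 4, 1 was called higher, SLC16A3, against 6.24% of all tested genes. For LDHB (0.10) and SLC16A1 (0.09) the values were small, and their mean TPM was slightly lower in shTPX2. SLC16A3 encodes the monocarboxylate carrier that exports lactate from glycolytic cells. It stood at 109 and 97.8 TPM with shNC and at 112 and 128 TPM with shTPX2. The groups were apart by a narrow margin, and the log2 fold change was 0.33 (SE 0.17, edgeR adjusted p = 0.689). It was not called without shNC 2 (0.23), shTPX2 1 (0.41) or shTPX2 2 (0.26), nor with scaling by library size only, with upper-quartile factors, with quantile normalization or with at least 10 counts in every library. LDHA, the lactate dehydrogenase form that favours lactate formation, was at 1087 and 1033 TPM with shNC and 1310.05 and 1035 TPM with shTPX2. Its groups overlapped in TPM only between shNC 1 and shTPX2 2, and the log2 fold change was 0.27 (SE 0.21, edgeR adjusted p = 0.78). LDHB, the form that favours pyruvate, held nearly the same level throughout, from 562 to 592 TPM. SLC16A1, the carrier that also takes lactate up, had the widest spread of the 4 genes, with both the highest (52.5 TPM) and the lowest (26.6 TPM) library in shTPX2. SLC16A3 has 5 windows in the promoter table, of which 1 holds ACGTG. That window, at chr17:82228792-82229041 on the plus strand, held it at -68 and at -55, marked in capitals.
SLC16A3 promoter: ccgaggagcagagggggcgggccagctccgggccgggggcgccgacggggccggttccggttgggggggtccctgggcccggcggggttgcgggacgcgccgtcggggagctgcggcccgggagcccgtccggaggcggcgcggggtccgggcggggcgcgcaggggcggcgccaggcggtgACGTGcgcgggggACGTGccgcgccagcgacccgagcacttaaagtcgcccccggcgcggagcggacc

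PFKFB3, PFKFB2 and PFKFB4 make or remove the fructose bisphosphate that switches phosphofructokinase on. PFKFB3, the form with the strongest synthetic activity and a known hypoxia target, stood at 18.1 and 14.3 TPM with shNC and at 21.98 and 21.3 TPM with shTPX2. The groups did not overlap, and the log2 fold change was 0.52 (SE 0.18, edgeR adjusted p = 0.590). The call was lost without shNC 2 (0.37) or shTPX2 1 (0.51). PFKFB2 and PFKFB4 were lower expressed, at 7.22 to 10.4 TPM and 4.39 to 5.32 TPM, with log2 fold changes of -0.23 and -0.02 and no call. PGM1, which links glucose phosphate to glycogen, ranged from 79.5 to 155 TPM, with both shTPX2 libraries below both shNC libraries in TPM. Its log2 fold change was -0.42 (SE 0.23, edgeR adjusted p = 0.702) and it was not called with all 4 libraries, but it was called lower with scaling by library size only, with quantile normalization, without shNC 1 (-0.63) and without shTPX2 1 (-0.62).

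The pyruvate dehydrogenase genes and the PDKs showed no call. Of the 6 genes, 0 were called at the study's criteria, against 14.2% of all tested genes. An unadjusted edgeR p under 0.05 was reached by 0, against 3.13% of all tested genes higher and 4.9% lower. A list of 6 genes is too short for 0 calls to set it apart from other genes. Of the 6, 5 had a log2 fold change below 0, against 51.1% of all tested genes, with a median of -0.08. PDK1, the kinase that HIF1A is known to raise, was at 8.89 and 10.1 TPM with shNC and 9.12 and 8.76 TPM with shTPX2. The groups overlapped, and the log2 fold change of -0.04 (SE 0.24, edgeR adjusted p = 0.979) changed sign with the library left out, from -0.17 to 0.12. PDK4, the kinase induced by fasting and fatty acids, had the third most negative log2 fold change but also a wide spread. It stood at 3.76 and 8.76 TPM with shNC and at 3.01 and 4.67 TPM with shTPX2, which overlap, and its log2 fold change was -0.58 (SE 0.44, edgeR adjusted p = 0.779), or 0.12 without shNC 2. PDHA1 and PDHB, the subunits of the enzyme that admits pyruvate to oxidation, were at 99.7 to 110.3 TPM and 51.4 to 68.1 TPM, with log2 fold changes of 0.14 and -0.13.

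All 3 genes of oxygen sensing had a log2 fold change below 0, against 51.1% of all tested genes, with a median of -0.17. Of the 3, 1 was called lower, against 7.99% of all tested genes. HIF1A was at 200.05 and 228 TPM with shNC and 200.03 and 181 TPM with shTPX2. The groups nearly touched in TPM, and the log2 fold change was -0.04 (SE 0.18, edgeR adjusted p = 0.967), with a sign that changed when shNC 2 (0.03) or shTPX2 2 (0.06) was left out. HIF1A is controlled mainly at the protein, which was not measured here. EGLN1, the main prolyl hydroxylase that marks HIF1A for destruction, stood at 29.3 and 28.3 TPM with shNC and at 22.2 and 19.8 TPM with shTPX2. The libraries of each group lay close together and apart from the other group, and the log2 fold change was -0.34 (SE 0.16, edgeR adjusted p = 0.668). EGLN1 was not called without shNC 1 (-0.26), shTPX2 1 (-0.39) or shTPX2 2 (-0.27). EGLN3, the hydroxylase that is itself a hypoxia target, ranged from 14.2 to 21.7 TPM with a log2 fold change of -0.17. The promoter of EGLN1, at chr1:231422288-231422537 on the minus strand, held ACGTG at -13, marked in capitals.
EGLN1 promoter: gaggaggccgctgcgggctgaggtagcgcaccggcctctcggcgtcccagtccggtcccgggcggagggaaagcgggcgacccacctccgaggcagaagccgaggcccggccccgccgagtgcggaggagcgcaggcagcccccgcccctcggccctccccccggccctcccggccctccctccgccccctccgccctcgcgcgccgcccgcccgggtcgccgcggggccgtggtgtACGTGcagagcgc

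Of the 8 hypoxia targets outside glycolysis, 0 were called higher, against 6.24% of all tested genes, and 2 were called lower, against 7.99%. Of the 8, 6 had a log2 fold change below 0, against 51.1% of all tested genes. NDRG1, a stress-responsive gene strongly induced by hypoxia, stood at 44.5 and 35.4 TPM with shNC and at 26.8 and 22.4 TPM with shTPX2. The groups did not overlap, and the log2 fold change was -0.58 (SE 0.20, edgeR adjusted p = 0.596). It was not called without shNC 1 (-0.38) or shTPX2 2 (-0.43). KDM3A, a histone demethylase induced by HIF1A, was at 19.3 and 22.2 TPM with shNC and 13.4 and 17.0 TPM with shTPX2. Each shTPX2 value was under the lower shNC value, and the log2 fold change was -0.34 (SE 0.17, edgeR adjusted p = 0.670). KDM3A was called in none of the fits that left out 1 library, where its log2 fold change ran from -0.39 to -0.29.

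The best-known hypoxia markers did not separate the groups. CA9, the membrane carbonic anhydrase used as a marker of hypoxic tumour cells, was at 3.24 and 6.21 TPM with shNC and 3.48 and 3.2 TPM with shTPX2. The groups overlapped, and the log2 fold change was -0.37 (SE 0.43, edgeR adjusted p = 0.86), or 0.15 without shNC 2. VEGFA, the angiogenic growth factor, was at 129 and 75.0 TPM with shNC and 121 and 101 TPM with shTPX2. Both shTPX2 libraries lay between the shNC libraries, and the log2 fold change of 0.23 (SE 0.29, edgeR adjusted p = 0.87) ran from -0.13 without shNC 2 to 0.71 without shNC 1. CA12, another carbonic anhydrase, and ANKRD37 were so uneven within a group that no difference could be read: CA12 ranged from 1.65 to 8.17 TPM within shNC and ANKRD37 from 0.46 to 2.27 TPM. ADM, the vasodilator peptide, and P4HA1, a collagen prolyl hydroxylase, had log2 fold changes of -0.34 and -0.24 and lay lower in both shTPX2 libraries in TPM but not on the scale of the fit. The 8 targets summed to 265 and 204 TPM with shNC and to 213 and 199 TPM with shTPX2, which overlap. VEGFA was the largest of them in every library. Without it, the other 7 summed to 136 and 129 TPM with shNC and to 92.5 and 97.9 TPM with shTPX2, or 132 ± 5.42 against 95.2 ± 3.87 TPM (mean ± SD, n = 2 each), a split for which the exact permutation test cannot go below 0.333. The split appears only when VEGFA, a target with a log2 fold change above 0, is left out. In TPM, 30.3% of all tested genes also lay lower in both shTPX2 libraries.

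For steps with more than 1 enzyme form, the share of each form in the summed TPM of the forms among the 40 genes does not depend on how libraries are scaled against each other. HK2 made up 5.47% and 6.88% of the summed TPM of HK1 and HK2 with shNC and 7.68% and 7.29% in shTPX2, a difference of 1.31 percentage points with no overlap. HKDC1, a further hexokinase, was not counted in this sum. ALDOC made up 2.9% and 2.42% of the summed TPM of ALDOA and ALDOC with shNC and 1.1% and 0.979% in shTPX2, a difference of -1.62 percentage points with no overlap. The share of LDHA, 65.9% and 63.6% in shNC and 69.8% and 64.6% in shTPX2, overlapped between the groups. Among the 3 phosphofructokinases PFKP was the largest in 3 of the 4 libraries, and PFKM took 26.5% and 28.6% in shNC and 22.6% and 26.52% in shTPX2, so that the groups nearly touched. PDK2 was the main PDK in every library, at 59.6% to 68.5%. The share of PDK3 was 2.62 percentage points higher in shTPX2 by TPM but -0.15 percentage points different by expected counts, so its direction rested on the unit. The share of ENO2 ran from 1.89% to 6.84% within shNC, and that of SLC16A1 from 17.2% to 31.98% within shTPX2. In each of the families whose shares did not overlap the exact two-sided permutation p was 0.333, the smallest possible.

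**Figure D3:**
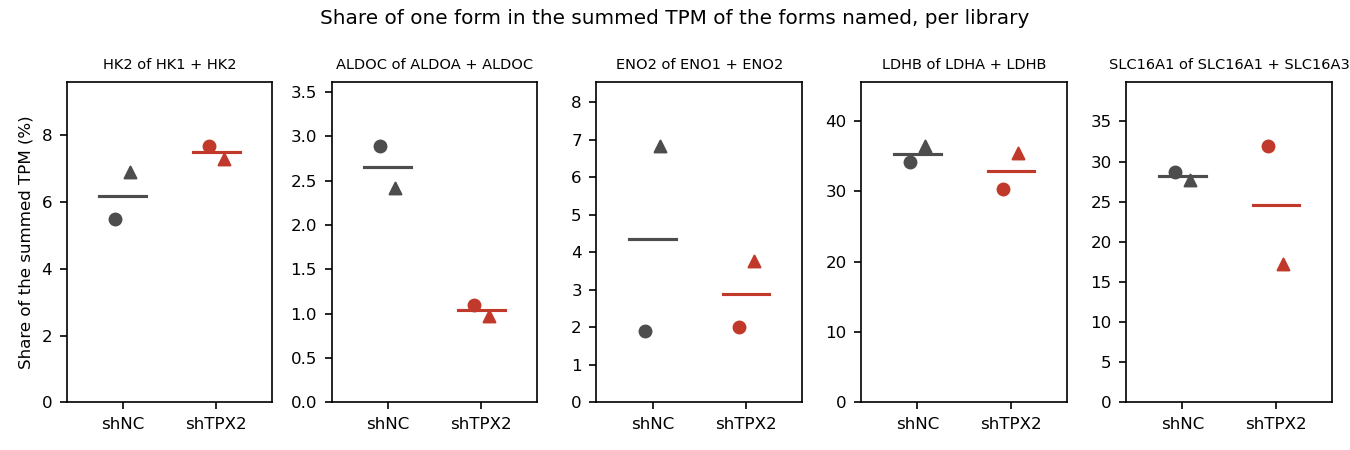
Share of 1 form in the summed TPM of the forms named (vertical axis, %), per library, for HK2 of HK1 and HK2, ALDOC of ALDOA and ALDOC, ENO2 of ENO1 and ENO2, LDHB of LDHA and LDHB, and SLC16A1 of SLC16A1 and SLC16A3; circles are library 1, triangles library 2, and lines the mean of the 2 libraries of a group. HK2 and ALDOC are the forms whose groups do not overlap, with ALDOC at 2.9% and 2.42% in shNC and 1.1% and 0.979% in shTPX2.

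The calls depended on which libraries were compared. The fits that left out 1 library called different sets of the 40 genes, and the number called over all tested genes also changed. Without shNC 1, for example, CA9, ENO2, GAPDH, PDK4, PGM1, PKM and VEGFA were gained. EGLN1, HK2, KDM3A and NDRG1 were lost in the same fit. ALDOC was called in each of these fits. Of the 40 genes, 15 changed sign in at least 1 of these fits. None of the 10 called genes could, because their groups do not overlap on the scale of the fit. In these fits the group left with 1 library was assumed to vary like the other.

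**Figure D4:**
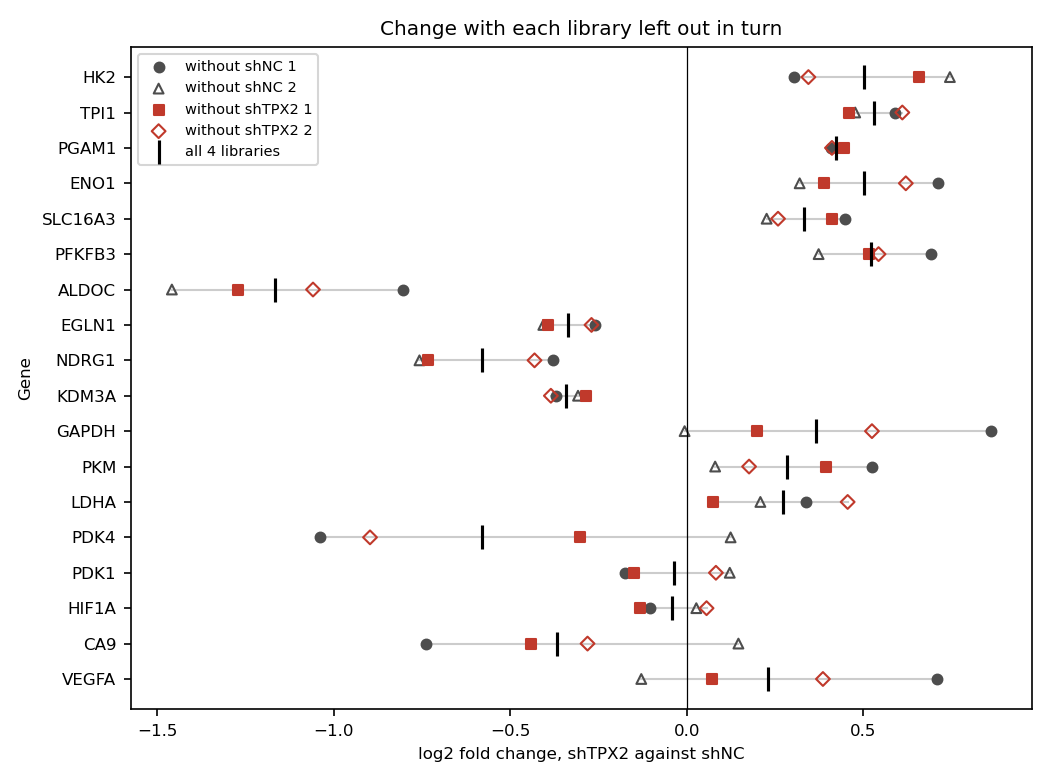
Log2 fold change of shTPX2 against shNC (horizontal axis) with each library left out in turn, for the 10 genes called at the study's criteria and 8 others; grey symbols leave out an shNC library, red symbols an shTPX2 library, and the black bar is the fit with all 4. The 10 called genes at the top have groups that do not overlap on this scale, which keeps them on 1 side of 0. Among the others, GAPDH, PDK4, PDK1, HIF1A, CA9 and VEGFA cross it.

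Further genes of the same pathways were taken from lists written from general knowledge, with earlier results of these data known. Of 14 other tested glycolytic and gluconeogenic isoenzymes, 1 was called higher and 1 lower, 14.3% in all against 14.2% of all tested genes, and the median of their log2 fold changes was 0.13. HKDC1 was at 22.7 and 25.5 TPM with shNC and 26.6 and 31.5 TPM with shTPX2 (log2 fold change 0.39, SE 0.17), while PGM2L1, which makes glucose bisphosphate, was at 6.4 and 8.27 TPM with shNC and 2.6 and 3.83 TPM with shTPX2 (log2 fold change -1.07, SE 0.25). Both kept apart without overlap. Of 8 other lactate dehydrogenases and carriers, 0 were called higher and 2 lower, against 6.24% and 7.99% of all tested genes, with a median of -0.31. EMB, embigin, a partner protein of lactate carriers, stood at 1.61 and 1.76 TPM with shNC and 0.27 and 0.42 TPM with shTPX2 (log2 fold change -2.14, SE 0.43). LDHC, the testis form, was near the limit of detection, with 7 and 6 counts in shTPX2. The pentose phosphate pathway, which draws glucose phosphate away from glycolysis, had 0 of 8 genes called, against 14.2% of all tested genes, 0 at an unadjusted edgeR p under 0.05, and a median of 0.03. Among 8 other genes of pyruvate entry and the pyruvate dehydrogenase complex 1 was called (12.5%, against 14.2%), the phosphatase PDP2, which reverses the action of the PDKs, at 12.8 and 12.3 TPM with shNC and 7.93 and 8.1 TPM with shTPX2 (log2 fold change -0.52, SE 0.16).

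Of 12 other oxygen-sensing genes 1 was called (8.33%, against 14.2%), CITED2, a hypoxia-induced protein that competes with HIF1A for its coactivators. It was lower, at 199 and 168 TPM with shNC against 112 and 83.4 TPM with shTPX2 (log2 fold change -0.79, SE 0.22). Of 31 other tested hypoxia targets, 1 was called higher and 3 lower, 12.9% in all against 14.2% of all tested genes, with a median of -0.12. The gene called higher was HILPDA, a lipid droplet protein, at 39.0 and 45.6 TPM with shNC and 43.2 and 77.3 TPM with shTPX2. Its groups overlapped in TPM, but on the scale of the fit both shTPX2 libraries lay higher. Those called lower were LOX and LOXL2, which cross-link collagen, and BHLHE40, a transcriptional repressor. BHLHE40 stood at 87.5 and 55.3 TPM with shNC and 45.9 and 32.6 TPM with shTPX2, and LOXL2 at 47.1 and 62.1 TPM with shNC and 38.9 and 21.3 TPM with shTPX2, without overlap. For none of these genes was the edgeR adjusted p under 0.05. In DESeq2, EMB had an adjusted p of 0.0497, just under that threshold, with 13 and 19 counts in shTPX2.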

How the data were processed

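RNA-seq of PC9 cells carrying shNC or shTPX2 (2 libraries each, 1 batch) was analysed from the deposited gene table. Per the paper the authors used SOAPnuke for read cleaning, HISAT2/Bowtie2 for alignment and either RSEM or StringTie for quantification, while the submitters' processing notes name HISAT2, featureCounts, DESeq2 and GRCh38. Versions, annotation and strand setting are not given in the sources used here. The authors deposited an expected count, which is not scaled for depth, and FPKM and TPM values, which they scaled by length and library. Of the expected counts 42.15% to 44.6% per library were not whole, and they were rounded to whole numbers. The FPKM values and 6 deposited columns of group averages were not used. Within 1%, those averages matched the mean of the 2 listed libraries for 3.37% (shNC) and 2.42% (shTPX2) of genes over 1 TPM, so they were made in another way and may include libraries not analysed here.

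The 14048 genes kept by filterByExpr were tested with edgeR 4.0.16 (TMM factors 0.959 to 1.05, quasi-likelihood test, Benjamini-Hochberg over all of them) in R 4.3.3. The common dispersion was 0.0485, so the spread between libraries rather than depth limits precision for all but weakly expressed genes. The study's criteria were applied with limma 3.58.1 after voom, and DESeq2 1.42.0 was an alternative. Shares were tested by exact permutation in SciPy 1.17.1. Sequences came from the RefSeq promoter table. The fits were tested on simulated data. Other scalings, filters, the replicate number as a block and leaving out each library were the alternatives.

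The 40 genes and the wider lists were chosen with earlier results of these data known. Full values are given for genes called at the study's criteria, genes with an unadjusted edgeR p under 0.05, the 3 largest positive and 3 largest negative log2 fold changes, and HK2, GAPDH, PKM, LDHA, PDK1, HIF1A, CA9 and VEGFA. Other genes are given by range. A marker gene of the leukocyte list is not reported here.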

Additional observations from a re-analysis of the deposited data

How the results depend on the processing

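Of the 40 genes, 25 kept the sign of their log2 fold change under every alternative run and 15 changed it under at least 1, of which 3 did so with all 4 libraries kept. PFKM went to -0.036 with scaling by library size only, and ENO2 to 0.10 and ANKRD37 to 0.11 with the replicate number as a block. With scaling by library size only the median became -0.011 over the 40 genes, 0.19 over the glycolytic enzymes and -0.36 over the hypoxia targets. With upper-quartile factors it was 0.033 over the 40 genes and -0.32 over the hypoxia targets. A minimum of 10 counts in every library, which removed ANKRD37, gave -0.35 over the hypoxia targets. DESeq2 called 33 genes higher and 78 lower, 1 of them among the 40. The carrier partner EMB and the endothelial marker CDH5 (DESeq2 adjusted p = 0.0184) were also called. With an adjusted p of at most 0.1 in limma 0 of the 40 genes were called higher and 0 lower, and 0 and 1 of all genes.

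The replicate number as a block gave a median of 0.10 over the 40 genes, 5 genes in place of 3 higher at an unadjusted p under 0.05, and GAPDH as an added call. With the block, the study's criteria called 1084 of all tested genes higher and 1363 lower, against 876 and 1122 without it. Across genes, the differences between the libraries of a group had a correlation of 0.18 between the groups. Whether libraries with the same number were paired was not tested.

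Leaving out each library in turn, edgeR called 0 to 5 genes higher and 0 to 20 lower at an adjusted p under 0.05. At the study's criteria 1 to 8 of the 40 genes were called higher and 1 to 5 lower, and 495 to 1546 of all genes higher and 523 to 1969 lower. An unadjusted edgeR p under 0.05 was reached by 0 to 5 of the 40 genes higher and 1 to 3 lower. The median ran from 0.0575 to 0.12 over the 40 genes, 0.18 to 0.36 over the glycolytic enzymes and -0.35 to -0.22 over the hypoxia targets. The log2 fold changes that crossed 0 ran from -0.074 to 0.16 for PFKM, -0.0064 to 0.86 for GAPDH, -0.62 to 0.91 for ENO2, -0.50 to 0.52 for SLC16A1, -0.093 to 0.068 for PFKFB4, -0.17 to 0.12 for PDK1, -0.27 to 0.17 for PDK2, -0.39 to 0.18 for PDK3, -1.04 to 0.12 for PDK4, -0.13 to 0.056 for HIF1A, -0.74 to 0.15 for CA9, -0.60 to 1.83 for CA12, -0.13 to 0.71 for VEGFA, -0.64 to 0.023 for ADM and -0.88 to 1.59 for ANKRD37. What in the left-out libraries made these differences was not tested. With 2 libraries a group, edgeR could not tell differences of the size seen here from the spread between libraries at an adjusted p under 0.05. Among the 40 genes, DESeq2 did so for ALDOC.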
